A study of Mus musculus with 24 samples.

Results

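The genes described here carry signals from the prolactin and growth hormone receptors in the mouse kidney. They are the receptors Prlr and Ghr, the kinase Jak2, the transcription factors Stat5a and Stat5b, and the inhibitors Socs2 and Cish. They were taken by gene name, and all 7 were found among the 19399 genes of the deposited table. Prlr was chosen by its measured values, since earlier results of these data had put it higher in water-deprived males, and the other 6 because they act with it. The data are polyA RNA-seq libraries of kidneys from 24 C57BL/6J mice aged 10 weeks, with 1 library per mouse. The 4 groups were 7 deprived males, 6 males with water ad lib, 5 deprived females and 6 females with water ad lib. Deprived mice had no water for 9 to 11 h, and all mice had food freely. Kidneys were collected around midnight (give or take 1 h), when the mice had been active for 6 h, and the labels name no other treatment and no altered allele. One deprived female, number 5, is deprived by its title and library code but has free access in its treatment field; it was kept as deprived, and a grouping with the ad lib females was tried.

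Prolactin and growth hormone are pituitary hormones, and their receptors belong to the class I cytokine receptors, which have no kinase activity of their own. Hormone binding activates the bound kinase JAK2, which phosphorylates the receptor and STAT5A or STAT5B, and the phosphorylated STAT5 enters the nucleus and activates transcription. Socs2 and Cish are classic STAT5 targets whose proteins act back on the receptor complex as inhibitors. In the rodent liver several of these genes differ between the sexes, because growth hormone is secreted in a different rhythm in males and females. Protein, phosphorylation and hormone levels were not measured here, so every value below is a level of mRNA.

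STAT5 binds palindromic sites of the form TTCNNNGAA, where N is any base, and this motif reads the same on both strands. RefSeq promoter windows of 250 bases before to 50 after a transcript start (GRCm38.p6, the patch release of mm10) were available for 6 of the 7 genes, as 11 windows. Socs2 had no entry. The motif was found in 2 of the 11 windows, and in 2726 of 32851 windows of all genes, or 8.30%. Overlapping matches were counted. The stretches that hold it are shown because they belong to Cish and Prlr, whose levels differed strongly between the sexes, with the matches in capitals. The Cish stretch is chr9:107296654-107296683 on the plus strand, and both of its matches lie in an untranslated region of transcript Cish-201 in GENCODE M21. The matches start at base 1 and base 12 from the RefSeq start, with 2 bases between them.
Cish: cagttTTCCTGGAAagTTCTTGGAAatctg
At least 2 matches were present in 150 of the 32851 windows, or 0.457%. That spacing was present in 1 window, that of Cish itself. The spacing was taken from the Cish window, so this match was fixed in advance, and other spacings were not counted. The Prlr stretch is chr15:10223656-10223905 on the plus strand, the 250 bases before the start of a transcript at position 10223906, and it lies in an intron of longer Prlr transcripts. Its match starts 110 bases before that start (position -110).
Prlr: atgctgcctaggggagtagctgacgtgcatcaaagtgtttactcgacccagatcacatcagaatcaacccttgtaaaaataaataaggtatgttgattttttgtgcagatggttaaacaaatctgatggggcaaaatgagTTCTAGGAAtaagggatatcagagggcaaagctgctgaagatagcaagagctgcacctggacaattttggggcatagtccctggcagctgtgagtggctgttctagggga
These matches are a description of the letters, and binding was not measured. The table counts reads per gene, so the transcript start that was used in these kidneys cannot be read from it.

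Libraries held 14411843 to 29398960 reads assigned to genes. Values are the authors' normalized read counts, that is, reads divided by a size factor of the library. Fold changes are differences of log2(value + 1) from limma, given with their standard errors, and adjusted p-values are Benjamini-Hochberg values over 17592 tested genes, those that reached 10 in 5 or more libraries; a gene is called below 0.05. All 7 genes passed this filter. An unnamed gene held an unusual share of the reads of 4 libraries, 1.07 to 2.86%, while its share was 0.268 to 0.850% elsewhere. The 4 were deprived males 6 and 7, deprived female 1 and ad lib female 6, and results were also computed without them, a choice made after seeing the data. Kidney identity was clear: all 10 proximal tubule markers were in the table, and their summed level was 353151 to 409724 in deprived males, 356910 to 421113 in ad lib males, 251094 to 311116 in deprived females and 304924 to 340289 in ad lib females. Of 7 adrenal cortex markers only Star was in the table.

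Prlr, the prolactin receptor (ENSMUSG00000005268, chr15:10177238-10349180, plus strand, GRCm38), had the widest range of the 7 genes relative to its level. Its normalized count was 687.7, 484.9, 794.1, 678.4, 638.2, 497.9 and 802.8 in the 7 deprived males and 530.8, 328.0, 256.3, 237.8, 298.7 and 371.9 in the 6 ad lib males. Ad lib male 1 lay above deprived males 2 and 6, so the male groups overlapped. In deprived females it was 5032, 4861, 4766, 4626 and 5801, and in ad lib females it ran from 4923 through a median of 5550 to 6296. Every female library was thus far above every male library, while the female groups overlapped each other.

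The group means of Prlr were 654.9 ± 127.0 in deprived males and 337.2 ± 106.5 in ad lib males (SD, n = 7 and 6), a ratio of 1.94. The log2 difference was 0.98 ± 0.14, with a 95% interval of 0.69 to 1.28, and it ranked 98 of 17592 tested genes by size in either direction; 0.227% of those genes were called in this comparison and 0.529% had groups that do not overlap. This is the value that chose Prlr, so it is a description and carries no test here. It was 0.99 without the 4 libraries that stand apart and between 0.89 and 1.13 when each library was left out in turn. Behind these means stood 426 to 701 reads per deprived male library and 209 to 477 per ad lib male library.

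In females, Prlr was not called after deprivation: the means were 5017 ± 462 in deprived and 5563 ± 523 in ad lib mice (SD, n = 5 and 6), a log2 difference of -0.15 ± 0.15 (limma adjusted p = 0.88). Its 95% interval ran from -0.47 to 0.17. The male minus female response was 1.13 ± 0.21 on the log2 scale, with an interval of 0.70 to 1.56. It contains the male difference that chose the gene, and so is also given with no test.

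Males had far less Prlr mRNA than females under both conditions. The log2 difference, male minus female, was -2.96 ± 0.15 in deprived mice (limma adjusted p = 2.1e-14) and -4.09 ± 0.15 in ad lib mice (adjusted p = 1.8e-17). The female mean was 7.66 times the male mean in deprived mice and 16.5 times in ad lib mice. Both sex comparisons share the male libraries with the comparison that chose Prlr. Per kilobase of exon, the mean count of Prlr exceeded that of 46.1% of genes in deprived males and 35.7% in ad lib males, against 85.1% in deprived females and 86.5% in ad lib females. Long and short receptor forms come from this 1 gene and were counted together; 203 of its 15339 exon bases also belong to Gm21973 on the same strand.

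Ghr, the growth hormone receptor (ENSMUSG00000055737, chr15:3317760-3583492, minus strand), was abundant in every library and ran the other way between the sexes. Its normalized count had a low, median and high of 18511, 19300 and 20015 in deprived males and of 18065, 19749 and 20579 in ad lib males. It was 14658, 14387, 14328, 13911 and 16871 in deprived females and 13837, 15356 and 17132 at the low, median and high in ad lib females. Each male library lay above each female library, and the water groups overlapped within each sex. The log2 difference, male minus female, was 0.39 ± 0.06 in deprived mice (limma adjusted p = 6.8e-06) and 0.36 ± 0.06 in ad lib mice (adjusted p = 1.5e-05).

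Ghr was not called after deprivation in either sex. The log2 difference was -0.02 ± 0.05 in males (limma adjusted p = 0.91; 95% interval -0.13 to 0.10) and -0.04 ± 0.06 in females (adjusted p = 0.94; interval -0.17 to 0.08). Per kilobase, its mean count exceeded that of 97.3 to 97.8% of genes in the 4 groups. The mRNA of the secreted growth hormone binding protein comes from the same gene and is part of this count.

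The balance of the 2 receptors can be read within a library as the ratio of their counts per kilobase. The length was all annotated exon bases, 15339 for Prlr and 9053 for Ghr. Their longest coding transcripts have 9900 and 4175 bases, so the size of the ratio depends on the length used. Prlr over Ghr was 0.0200 ± 0.0040 in deprived males, 0.0101 ± 0.0029 in ad lib males, 0.200 ± 0.0032 in deprived females and 0.215 ± 0.0095 in ad lib females (SD, n = 7, 6, 5 and 6). The ratio spanned 0.0143 to 0.0256 in deprived males and 0.00728 to 0.0152 in ad lib males, which overlap, and 0.196 to 0.203 in deprived females and 0.204 to 0.231 in ad lib females, which do not. Ghr mRNA was therefore the more abundant of the pair in every library, and relative to its mean the ratio varied less among female libraries than among male ones. The ratio was not tested, since its male part rests on the value that chose Prlr. The female ranges nearly touch, at 0.203 and 0.204, and how often ratios of other gene pairs do not overlap was not computed. Of single genes, 2.48% did not overlap between the female groups.

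**Figure D1:**
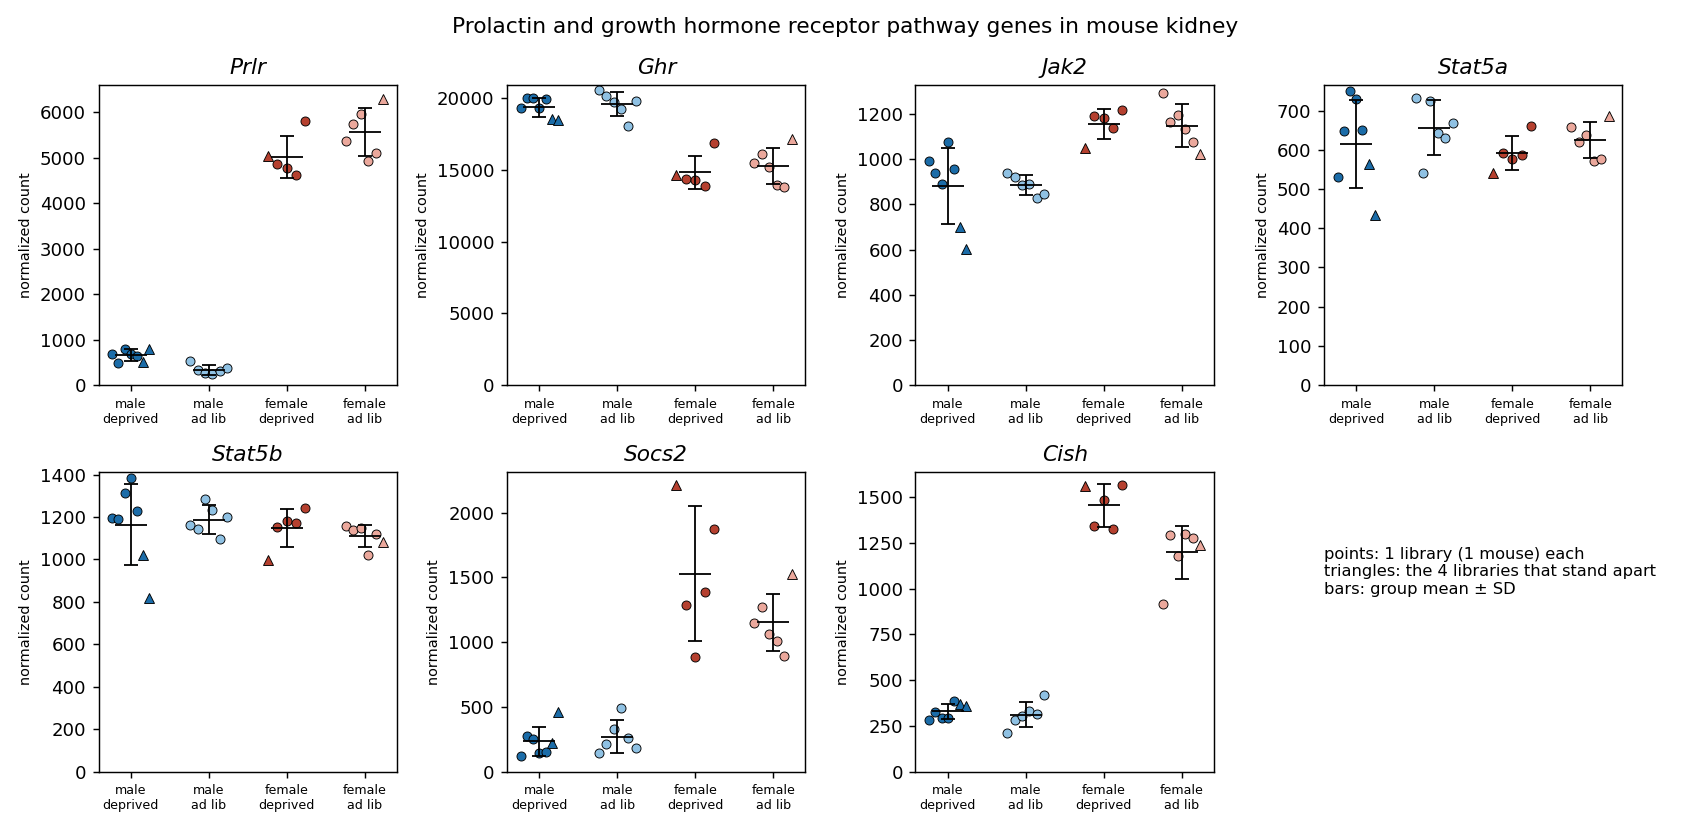
Normalized read counts of the 7 genes (vertical axes, from 0) in each of the 24 libraries, by group; points are libraries, triangles the 4 that stand apart, and bars the group mean ± SD. Prlr, Socs2 and Cish are lower in every male than in every female library, Ghr is higher in every male library, and the groups of Stat5a and Stat5b overlap.

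**Figure D2:**
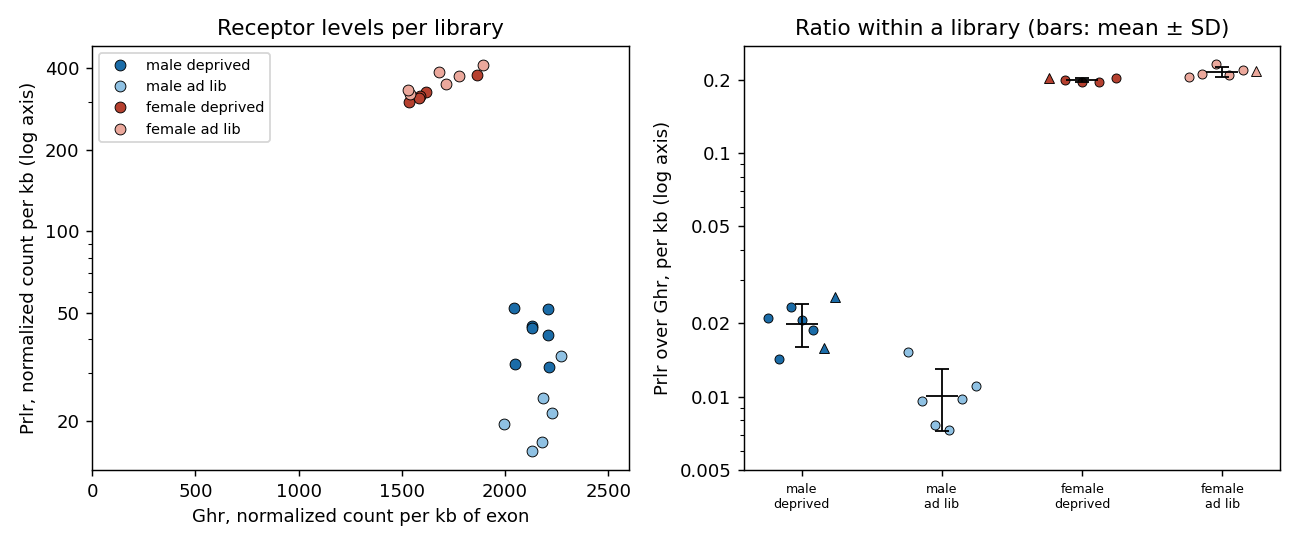
Left, Prlr against Ghr as normalized counts per kilobase of exon, 1 point per library, with a log axis for Prlr; right, the ratio of the 2 per library on a log axis, with bars for the mean ± SD and triangles for the 4 libraries that stand apart. The female ratios lie between 0.196 and 0.231 and the male ratios between 0.00728 and 0.0256.

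Jak2, the kinase that both receptors use (ENSMUSG00000024789, chr19:29251828-29313080, plus strand), was lower in males than in females. Its normalized count had a low, median and high of 602, 938 and 1078 in deprived males and of 828, 889 and 939 in ad lib males. It was 1052, 1193, 1185, 1139 and 1218 in deprived females and 1022, 1149 and 1295 at the low, median and high in ad lib females. The sexes did not overlap in ad lib mice and overlapped slightly in deprived mice, where deprived males 6 and 7, which stand apart, were the lowest of all at 701 and 602.

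The log2 difference of Jak2, male minus female, was -0.42 ± 0.10 in deprived mice (limma adjusted p = 0.0020) and -0.37 ± 0.10 in ad lib mice (adjusted p = 0.0051). Without the 4 libraries that stand apart it was -0.29 in deprived mice and -0.40 in ad lib mice, called in both. Deprivation gave -0.03 ± 0.10 in males (adjusted p = 0.89) and 0.01 ± 0.10 in females (adjusted p = 0.99). Without those 4 libraries the male difference was 0.13, with an unadjusted p below 0.05 in limma and an adjusted p of 0.24.

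Stat5a and Stat5b, the transcription factors at the end of the relay, are neighbours on chromosome 11 (ENSMUSG00000004043, chr11:100859351-100885169, plus strand, and ENSMUSG00000020919, chr11:100780731-100850724, minus strand). Stat5a had a low, median and high normalized count of 433, 649 and 750 in deprived males and of 540, 656 and 733 in ad lib males. It was 542, 593, 576, 588 and 661 in deprived females and 573, 629 and 688 at the low, median and high in ad lib females. All 4 groups overlapped.

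Stat5b had a low, median and high normalized count of 820, 1197 and 1385 in deprived males and of 1096, 1181 and 1287 in ad lib males. It was 995, 1152, 1182, 1172 and 1241 in deprived females and 1021, 1130 and 1158 at the low, median and high in ad lib females. Its groups overlapped too, and deprived male 7, a library that stands apart, was the lowest for both genes. Neither gene was called in any comparison. The sex difference of Stat5b was 0.01 ± 0.09 in deprived mice (limma adjusted p = 0.97) and 0.09 ± 0.09 in ad lib mice (adjusted p = 0.46), and that of Stat5a was 0.04 ± 0.10 (adjusted p = 0.82) and 0.07 ± 0.10 (adjusted p = 0.67). The 95% intervals of these 4 log2 differences reached from -0.18 to 0.28, which leaves out differences of the size seen for Prlr, Socs2 and Cish.

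Per kilobase, Stat5b exceeded Stat5a 2.45 ± 0.21 times in deprived males, 2.35 ± 0.23 times in ad lib males, 2.50 ± 0.11 times in deprived females and 2.30 ± 0.16 times in ad lib females (SD, n = 7, 6, 5 and 6). The 2 genes share sequence: of the 50-base stretches of the longest coding transcript, 16.4% of those of Stat5a recur in Stat5b or Stat3, and 11.8% of those of Stat5b recur in Stat5a. How the counting treated such reads is not given in the sources used here, so the split between the 2 genes is uncertain. The size of the ratio also depends on the length used. Here it was all annotated exon bases, 7133 for Stat5a and 5539 for Stat5b, while their longest coding transcripts have 3888 and 5213 bases.

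Socs2, an inhibitor that restrains growth hormone signalling in mice (ENSMUSG00000020027, chr10:95385362-95417180, minus strand), was lower in males and varied most within groups. Its normalized count had a low, median and high of 126, 225 and 460 in deprived males and of 146, 237 and 493 in ad lib males. It was 2212, 1286, 888, 1391 and 1873 in deprived females and 895, 1106 and 1527 at the low, median and high in ad lib females. The sexes did not overlap and the water groups did. The coefficient of variation within a group was 48.7% in deprived males, 46.3% in ad lib males, 33.9% in deprived females and 19.4% in ad lib females.

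The log2 difference of Socs2, male minus female, was -2.76 ± 0.29 in deprived mice (limma adjusted p = 6.3e-08) and -2.18 ± 0.29 in ad lib mice (adjusted p = 2.0e-06). The female mean was 6.52 times the male mean in deprived mice and 4.25 times in ad lib mice. Deprivation gave -0.22 ± 0.28 in males (adjusted p = 0.73; 95% interval -0.80 to 0.35) and 0.36 ± 0.30 in females (adjusted p = 0.83; interval -0.27 to 0.99). These intervals are wide, so a change of up to 1.98-fold in females is within the error. The sexes' responses differed by -0.58 ± 0.41, which did not pass (adjusted p = 0.77). Of the 50-base stretches of its longest coding transcript, 18.4% recur in Gm8000 or Gm9847, for which no values were found here.

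Cish, the gene of the inhibitor CIS (ENSMUSG00000032578, chr9:107296026-107302784, plus strand), was also lower in males, with less spread than Socs2. Its normalized count had a low, median and high of 283, 324 and 385 in deprived males and of 210, 310 and 420 in ad lib males. It was 1560, 1340, 1484, 1325 and 1565 in deprived females and 919, 1257 and 1298 at the low, median and high in ad lib females. Every male library lay below every female one, and each deprived female lay above each ad lib female. The highest deprived value, 1565, is that of deprived female 5, whose treatment field says free access. Counted as ad lib, it would lie above the other deprived females, and the female groups would overlap.

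The log2 difference of Cish, male minus female, was -2.14 ± 0.12 in deprived mice (limma adjusted p = 1.1e-13) and -1.97 ± 0.12 in ad lib mice (adjusted p = 4.0e-13). The female mean was 4.40 times the male mean in deprived mice and 3.86 times in ad lib mice. In females the means were 1455 ± 116 in deprived and 1200.2 ± 144.9 in ad lib mice (SD, n = 5 and 6), a log2 difference of 0.28 ± 0.12 whose unadjusted p was 0.030 and whose adjusted p was 0.43 in limma. Groups that do not overlap were found for 2.48% of all tested genes in that comparison. In males the difference was 0.11 ± 0.11 (adjusted p = 0.67), and the sexes' responses differed by -0.17 ± 0.17 (adjusted p = 0.80).

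Exons of Cish overlap those of the pseudogene Gm17040 over 261 bases and of the antisense gene Gm17041 over 479 bases, both on the opposite strand, and whether the counting used strand is not given in the sources used here. The normalized count of Gm17040 was 3.00 to 49.2 in deprived males and 5.56 to 18.2 in ad lib males against 25.7 to 55.1 in deprived females and 23.4 to 41.8 in ad lib females. For Gm17041 no values were found here. The part of either gene in the Cish counts was not tested.

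Counted over the whole set, the sexes differed at 5 of 7 genes in deprived mice and at the same 5 in ad lib mice, with Ghr higher and Prlr, Jak2, Socs2 and Cish lower in males. The counts and medians given here for the 7 genes include Prlr, which was chosen by its male values. Of the other 6 genes, 4 (66.7%) were called in deprived mice and 4 (66.7%) in ad lib mice. Of all tested genes, 33.1% were called in deprived mice (17.5% higher and 15.6% lower in males) and 30.5% in ad lib mice (15.9% higher and 14.5% lower). The sexes did not overlap for 4 of the 7 genes in deprived mice and for 5 in ad lib mice, against 15.5% and 22.4% of all tested genes. The median size of the log2 difference was 0.42 for the 7 genes against 0.22 for all genes in deprived mice, and 0.37 against 0.21 in ad lib mice. All 5 genes were called in the same direction by edgeR and DESeq2, without the 4 libraries that stand apart, and with any 1 library left out. Because whole kidney was measured, fewer cells of a type and less RNA per cell cannot be told apart in any of these differences.

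After deprivation, none of the other 6 genes was called in males, where 0.227% of all genes were called, and none of the 7 in females, where 0.79% were. At an unadjusted p below 0.05 limma had 0 of the 6 in males and 1 of the 7 in females, Cish. Of all genes, 11.6% in males and 9.73% in females reached it. With all libraries, edgeR and DESeq2 gave the same counts, adjusted and unadjusted. Without the 4 libraries that stand apart, limma had 0 of the 7 in females, against 18.6% of all genes. In males Jak2 then reached it, with a log2 difference of 0.13 (limma adjusted p = 0.24), and no other of the 6 did. The test of the male minus female response called 0 genes of the whole table in limma, with 1248 at an unadjusted p below 0.05; edgeR called 0 and DESeq2 43.

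**Figure D3:**
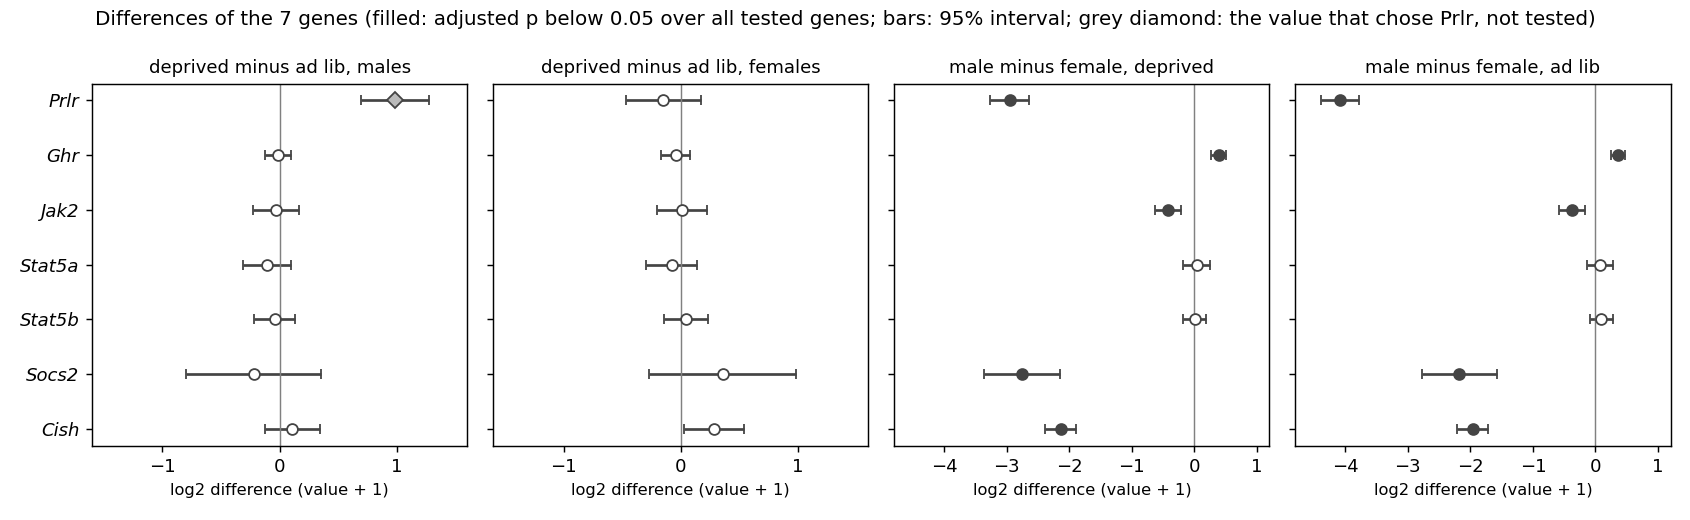
Log2 differences of the 7 genes with their 95% intervals for deprivation in males, deprivation in females and male minus female in deprived and in ad lib mice (horizontal axes, log2 of value + 1). Filled points have an adjusted p below 0.05 over all tested genes; the grey diamond is the male value of Prlr, 0.98, which chose the gene. The sex panels show Prlr, Socs2, Cish and Jak2 left of 0 and Ghr right of it.

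Within groups, some of the genes moved together from mouse to mouse. Each library's log2 value was taken relative to its group mean, and all 21 pairs were compared over the 24 libraries by permutation within groups. Jak2 and Stat5b had a Pearson r of 0.85 (permutation, adjusted p = 0.0043) and a Spearman rho of 0.71 (permutation, adjusted p = 0.013). For each pair, the r was also taken without the 2 libraries farthest from the median of its first-named gene. For Jak2 and Stat5b this r was 0.68. Without the 4 libraries that stand apart it was 0.37, so much of it rests on those 4. Stat5a and Stat5b had an r of 0.80 (permutation, adjusted p = 0.0043) and a rho of 0.67 (permutation, adjusted p = 0.013), with 0.62 and 0.66 on the same reductions; they share sequence, as given above.

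Jak2 and Cish went in opposite directions, with an r of -0.47 (permutation, adjusted p = 0.031) and a rho of -0.58 (permutation, adjusted p = 0.042), and the r was -0.48 and -0.54 on those reductions. Ghr and Stat5a had an r of 0.49 (permutation, adjusted p = 0.014) and a rho of 0.62 (permutation, adjusted p = 0.013), with 0.43 and 0.40. Jak2 and Socs2 had an r of -0.56 (permutation, adjusted p = 0.042) and a rho of -0.50 (permutation, adjusted p = 0.065), and only -0.21 without the 4 libraries. Those were the 5 of 21 pairs that passed for r. Socs2 and Cish, both STAT5 targets, had an r of 0.30 (permutation, adjusted p = 0.36) and a rho of 0.33 (permutation, adjusted p = 0.30).

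The genes with the most similar pattern over the 24 libraries were ranked by Pearson r, which for genes that differ by sex mainly follows sex. For Prlr they were Hao2 (0.985), Slc7a12 (0.983) and Rdh16f2 (0.979), with an r of 0.44, 0.52 and 0.42 once group means were taken out. For Cish they were Cdh6 (0.975), Oat (0.972) and Xist (0.971), and after that step 0.36, -0.05 and -0.03. For Socs2 they were Mpv17l (0.965), Igfals (0.963) and Akr1c18 (0.956), and 0.76, 0.75 and 0.64 remained within groups. Igfals encodes the acid-labile subunit that holds IGF1 in the circulation and is a known growth hormone target in liver.

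For Jak2, Stat5a and Stat5b the likeness was as high, or nearly so, within groups, and for Ghr it fell further. Ghr was most like Far1 (0.971), Tmco3 (0.970) and Lactb2 (0.968), with 0.83, 0.85 and 0.79 within groups. Jak2 was most like Dclk2 (0.972), Dcdc2a (0.929) and Slc26a4 (0.926), with 0.93, 0.87 and 0.86. Slc26a4 encodes pendrin, an anion exchanger of intercalated cells. Stat5b was most like Atp11b (0.907), Fam168b (0.902) and Usp32 (0.894), and Stat5a was most like Stat5b (0.779), Tnfrsf21 (0.746) and Dpp9 (0.742). With 1 library left out, the r before that step was 0.63 to 0.83 for Stat5a with Stat5b. It was 0.83 to 0.94 for Stat5b with Atp11b and 0.96 to 0.98 for Jak2 with Dclk2. Except for Stat5a with Stat5b, the r within groups was not computed without the 4 libraries that stand apart.

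A wider list of 71 genes of the pathway covered related cytokine receptors, other Janus kinases and STATs, other SOCS proteins and phosphatases, adaptors, targets, sex steroid receptors and the ligands; 62 were tested. The ligand genes Prl and Gh were not found by name in the deposited table. No gene of the list was called after deprivation in males or in females in limma, with 8 of 62 (12.9%) at an unadjusted p below 0.05 in each sex, against 11.6% of all genes in males and 9.73% in females. The count tests called few: edgeR 0 in both sexes, and DESeq2 Cdkn1a in males and Igfbp3 in females (1.61% of the list in each sex). Over the whole table DESeq2 called 156 genes in males and 354, or 2.01%, in females. Without the 4 libraries that stand apart, limma called Ptpn1 and Socs7 in females, 3.23% of the list against 4.43% of all genes. In males it called 0 genes of the list and 141 of the whole table. At an unadjusted p below 0.05 limma then had 12 genes of the list in females (19.4%, against 18.6% of all genes) and 11 in males (17.7%).

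Between the sexes 16 of the 62 were called in deprived mice, 6 higher and 10 lower in males, and 19 in ad lib mice, 14 higher and 5 lower. These shares, 25.8% and 30.6%, stand beside 33.1% and 30.5% of all genes. Without the 4 libraries that stand apart, 31 of 62 (50%) were called in deprived and 31 in ad lib mice, against 41.6% and 42.7% of all genes. The list's share was thus below or level with that of all genes with every library and above it without those 4, and this difference was not tested. Called in the same direction in both conditions were 9 genes: Bcl6, Il5ra, Esr1, Fbxw11, Jak1 and Stat6 higher and Igfals, Irs2 and Cux2 lower in males.

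Among the targets, Igfals averaged 206.7 ± 53.5 in deprived males and 754.2 ± 106.3 in deprived females (SD, n = 7 and 5), and 208.3 ± 28.6 in ad lib males and 764.0 ± 118.8 in ad lib females (SD, n = 6 each). Its log2 difference, male minus female, was -1.89 in deprived and -1.87 ± 0.14 in ad lib mice (limma adjusted p = 6.0e-11 in ad lib mice). Cux2, a transcription factor that is higher in female than in male mouse liver, was lower in male kidneys by the same measure, with -0.59 in deprived and -0.62 in ad lib mice. Myc was lower in ad lib males, with -0.72, and was not called between the sexes in deprived mice. Igf1, the best known growth hormone target, was not called in either condition, with -0.29 in deprived mice (limma adjusted p = 0.12; unadjusted p = 0.049) and -0.20 in ad lib mice (adjusted p = 0.31).

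Bcl6, a repressor that competes with STAT5 at shared sites in male mouse liver, was higher in males, with a log2 difference of 1.65 ± 0.44 in deprived mice (limma adjusted p = 0.0054) and 2.64 ± 0.43 in ad lib mice (adjusted p = 4.5e-05). Its normalized count varied widely among males, with a low, median and high of 400, 763 and 3840 in deprived males and of 1349, 2256 and 4205 in ad lib males, against 286, 342 and 373 in deprived females and 264, 387 and 494 in ad lib females. The sexes did not overlap in either condition.

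Of the receptors, Il5ra, a subunit of the interleukin-5 receptor, was higher in males by 1.79 in deprived and 1.62 in ad lib mice, at low levels of 63.7 ± 18.3 in deprived and 67.6 ± 29.6 in ad lib males against 17.7 ± 6.0 in deprived and 19.9 ± 3.2 in ad lib females (SD, n = 7, 6, 5 and 6). Esr1, an oestrogen receptor, was higher in males by 1.37 in deprived and 1.24 ± 0.10 in ad lib mice. The progesterone receptor Pgr was lower in deprived males, with -0.68. Il6st, the shared signal transducer gp130, was higher in ad lib males, with 0.56.

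Among adaptors and kinases, Irs2, which links receptors to PI3 kinase, was lower in males by log2 values of -0.91 in deprived and -0.57 in ad lib mice. The kinases Fyn and Jak3 were lower in deprived males, with -0.35 and -0.29, as was Stat2, with -0.50. The call of Jak3 was lost in 5 of 24 fits that left out 1 library, namely deprived female 2, 3 or 4 or deprived male 6 or 7 (limma adjusted p = 0.060 to 0.127). Of the inhibitors and turnover factors, Fbxw11, part of a ubiquitin ligase, was higher in males by 0.41 in deprived and 0.45 in ad lib mice. Socs7, Ptpn1 and Socs4 were higher in ad lib males, with 0.48, 0.31 and 0.24, and Socs5 was lower in deprived males, with -0.21. When all libraries were scaled to equal totals, which moved the median of all genes to -0.22 in deprived and -0.16 in ad lib mice, the calls of Fbxw11 in deprived mice and of Ptpn1 and Socs4 in ad lib mice were lost (adjusted p = 0.080, 0.158 and 0.193).

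**Figure D4:**
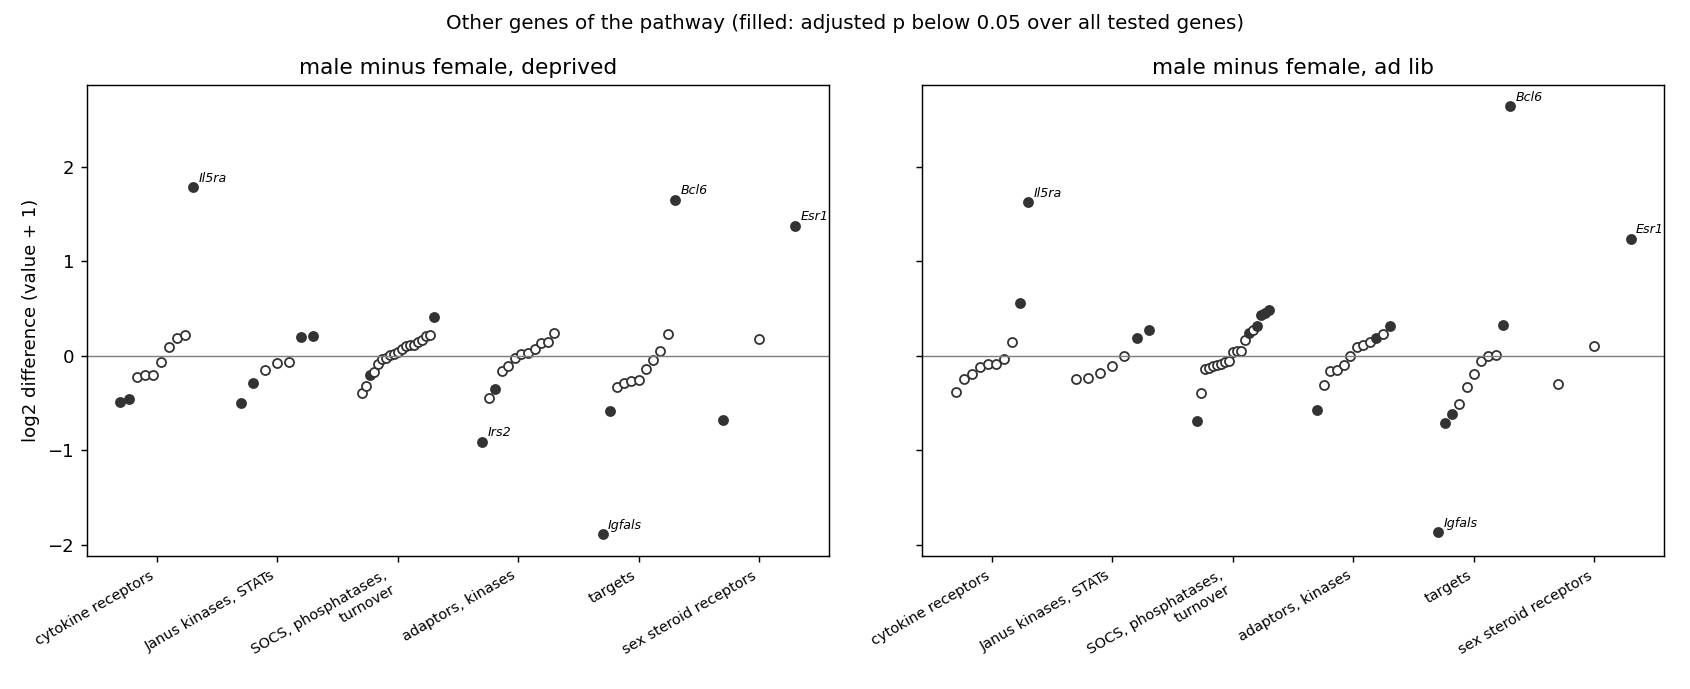
Log2 differences, male minus female, of the 62 tested genes of the wider pathway (vertical axis, log2 of value + 1) by list, in deprived and in ad lib mice; filled points have an adjusted p below 0.05 over all tested genes and the largest are named. Bcl6, Il5ra and Esr1 are the highest and Igfals the lowest in both panels.

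Markers of several kidney cell types also differed between the sexes. Of all tested genes, 33.1% were called in deprived and 30.5% in ad lib mice. Of 5 immune and 5 adipose markers tested, 0 were called in either condition. Of 4 thick ascending limb markers, 1 was called higher and 2 lower in deprived males, and 1 lower in ad lib males. Distal convoluted tubule markers were called lower for 2 of 3 in deprived and 1 of 3 in ad lib males. Of 6 urothelium markers, 1 was lower in deprived males. The summed level of 5 podocyte markers was 5016 to 7426 in deprived males and 6631 to 7381 in ad lib males, against 7728 to 9970 in deprived females and 8125 to 9391 in ad lib females, and all 5 were called lower in males under both conditions. The 5 markers of the S3 segment of the proximal tubule summed to 327283 to 734047 in deprived males and 334531 to 385959 in ad lib males, against 132043 to 211899 in deprived females and 109084 to 177215 in ad lib females; these sums are carried by Kap, which like Slc7a13 is known for sex-dependent expression in mouse kidney. Of the 5 S3 markers, 3 were called higher and 1 lower in males in deprived mice, and 2 higher and 1 lower in ad lib mice, and Slc5a1 averaged 1699 in deprived and 1841 in ad lib males against 2032 in deprived and 2230 in ad lib females. Intercalated cell markers were called lower in males for 4 of 5 in deprived and 3 of 5 in ad lib mice, with sums of 5121 to 6537 in deprived and 6504 to 8045 in ad lib males against 7101 to 8360 in deprived and 7933 to 8870 in ad lib females; one of them, Slc26a4, is among the genes most like Jak2. Endothelial markers were called lower for 6 of 6 in deprived and 3 of 6 in ad lib mice, with sums of 9114 to 10308 in deprived and 8547 to 10091 in ad lib males against 11462 to 12795 in deprived and 9643 to 10896 in ad lib females. Stromal and smooth muscle markers were called lower for 5 of 6 in deprived mice and 0 of 6 in ad lib mice in limma, and principal cell markers for 3 of 5 tested in each condition. Of 10 general proximal tubule markers 4 were called higher and 1 lower in males in deprived and in ad lib mice. Of the skeletal muscle markers, Myh1 was 0 to 8.06 in deprived males and 1.11 to 5.20 in ad lib males, against 134 to 245 in deprived females and 198 to 276 in ad lib females. Acta1 and Myh4 were at most 12.7 and 14.2 in any library, and Ckm and Tnnt3 were not found by name in the deposited table. With deprivation, the sum of 6 principal cell markers was 19481 to 26984 in deprived males against 13611 to 15718 in ad lib males, and 21612 to 25594 in deprived females against 15352 to 21199 in ad lib females, and 2 of the 5 tested were called higher with deprivation in males, and 2 higher and 1 lower in females. The part of cell composition in the differences of Prlr, Ghr, Jak2, Socs2 and Cish was not tested.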

How the data were processed

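RNA of 24 mouse kidneys was measured by polyA RNA-seq. The deposited table holds a normalized count signal per gene, that is, reads divided by a size factor per library; per the submitters' processing notes Trim Galore, Subread, featureCounts, DESeq2 and the mm10 genome were used. Aligner settings, annotation release and strandedness of counting are not given in these sources. Dividing by the smallest step of each library gave whole reads (tolerance 0.01 read) for 100% of values; no gene had a total under 100 reads. GENCODE M21 matched 19298 of the 19399 gene IDs and gave positions and exon lengths.

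The main test was limma 3.58.1 (R 4.3.3, trended, robust) on log2(value + 1), in 1 fit with 4 group coefficients, for genes of at least 10 in at least 5 libraries; edgeR 4.0.16 and DESeq2 1.42.0 on recovered reads were alternatives. The script was tested on simulated data. Labels do not say how litters or cages were shared, so p-values measure the spread between these mice. Replicate numbers are those of the titles, and whether they pair mice is not known. The genes and lists were chosen with earlier results of these data known. Named were the 7 genes, up to 12 called pathway genes per comparison by p, with further called genes of both conditions and the value of Igf1 added after their values were seen, and the 3 genes most like each member.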

Additional observations from a re-analysis of the deposited data

Results flagged for a closer look

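In 4 groups 1 library lay far from the others, by a gap larger than the 95% critical value of Dixon's test for the group's size. For the 7 genes 28 groups were tested in this way, and 96 with the named pathway genes, and chance flags about 1 in 20 groups. Ghr was 16871 in deprived female 5, the highest of its group; that mouse is the one whose treatment field says free access. Cish was 919 in ad lib female 1, the lowest of its group. Cux2 was 105 in its lowest ad lib female, and Irs2 was 748 in its highest deprived male.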

How the results depend on the processing

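The 5 sex differences among the 7 genes kept their direction and call under every alternative run in both water conditions, and no deprivation difference of the other 6 genes was called under any. Counts of genes called over the whole table moved more. For deprivation in females, 139 became 1003 with library weights, 2 with deprived female 5 counted as ad lib, 354 in DESeq2 and 765 without the 4 libraries that stand apart, and 66 to 215 when 1 library was left out (lowest without ad lib females 2 and 5 or deprived females 3, 4 and 5, highest without deprived male 7). For males, 40 became 133 with weights, 11 with each sex fitted alone, 156 in DESeq2, 64 with the replicate block and 141 without the 4 libraries, and 22 to 65 with 1 library left out (ad lib males 3 and 4 lowest, deprived male 3 highest). For the difference of responses, 0 became 9 with weights, 43 in DESeq2 and 9 without the 4 libraries, and 0 to 3 with 1 left out. Of the 7 genes 0 became 1 in DESeq2, and 0 to 1 with 1 library left out; that gene is Prlr, whose difference contains the value that chose it, so this count is no test of it. On recovered reads edgeR called 172 genes for deprivation in females, 34 in males, 5954 between the sexes in deprived and 5461 in ad lib mice. Whether replicate numbers pair mice is not known. Over 33 same-numbered pairs the correlation of deviations ran from -0.172 to 0.450 (median 0.031), and 5 of 23 libraries correlated best with their own number. Weak correlations cannot decide this. The numbers used here and in the replicate block are those of the titles. Deprived females 3, 4 and 5 have the library codes FD4, FD5 and FD6, and pairing by code was not tried. The replicate block called 203 genes for deprivation in females, 0 for the difference of responses, 6408 between the sexes in ad lib and 6210 in deprived mice, and lost Jak3 in deprived mice (adjusted p = 0.084).

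Signs turned only for log2 differences that were called in neither setting. Of these, the male Jak2 difference without the 4 libraries reached an unadjusted p below 0.05 in limma (adjusted p = 0.24). In females, Jak2 was -0.018 and Stat5b -0.0073 with deprived female 5 as ad lib, and Jak2 -0.0277 with the block. In males, without the 4 libraries, Ghr was 0.0096, Jak2 0.1314, Stat5a 0.009 and Stat5b 0.0882; with weights Jak2 was 0.106 and Stat5b 0.0516, and with the block 0.0536 and 0.0371. For the difference of responses, Ghr was -0.042 with equal totals; Jak2 was 0.081 with weights, 0.0813 with the block and 0.1164 without the 4; Stat5a was 0.0077, 0.052 and 0.0287 there and 0.0231 with female 5 as ad lib; Stat5b was 0.0112 with the block and 0.0005 without the 4. Between the sexes, Stat5a was -0.1701 and Stat5b -0.2011 in deprived and -0.0717 and -0.0437 in ad lib mice with equal totals, and -0.0125 and -0.0434 in deprived mice with upper-quartile scaling. With 1 library left out, Jak2 ran from -0.019 to 0.0492 in females and -0.0862 to 0.0536 in males, and Stat5b from -0.0888 to 0.0371 in males; in the difference of responses Ghr ran from -0.0066 to 0.0744, Jak2 from -0.0999 to 0.04 and Stat5a from -0.0845 to 0.0513; between deprived sexes Stat5a ran from -0.0143 to 0.1177 and Stat5b from -0.0446 to 0.0873. The causes were not tested. With each sex fitted alone the sexes could not be compared. Depth was lowest for Socs2 in males, with 104 reads or more per library; each male Prlr value rests on at least 209 reads.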
